A study of Homo sapiens with 9 samples.

Results

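Transsulfuration makes cysteine, glutathione is built from that cysteine, and glutathione is then oxidised, recycled or broken down again. The 8 enzymes described here cover this route: CHAC1 and CHAC2 for breakdown, GCLC, GCLM and GSS for synthesis, GSR for recycling, and CTH and CBS for cysteine supply. They were chosen by gene symbol from the 16222 genes of the deposited tables, with earlier results of these data known, among them the level of CHAC1 in LPS against control. All 8 had a row and all 8 passed the filter on low counts. RNA was sequenced from wild-type THP-1, an established line from a human monocytic leukaemia, in 9 libraries (3 groups of 3). The LPS_ABS group received PMA and then LPS together with ABS, the LPS group PMA and then LPS, and the control group PMA and then PBS. PMA, a phorbol ester, turns THP-1 monocytes into adherent macrophage-like cells, and every group received it, controls included. LPS is the lipopolysaccharide of Gram-negative bacteria. The labels do not spell out ABS (the series title speaks of apoptotic bodies) and give no dose or time. Whether the libraries of a group are separate cultures is not stated in the labels. The p-values therefore reflect only how these 9 libraries scatter within their groups, which may be technical.

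Glutathione is a tripeptide of glutamate, cysteine and glycine and the main thiol buffer of the cytosol. Glutamate-cysteine ligase, with its catalytic subunit GCLC and its modifier subunit GCLM, joins glutamate to cysteine, and glutathione synthetase (GSS) adds glycine. Glutathione reductase (GSR) returns the oxidised form to the reduced form with NADPH. The gamma-glutamylcyclotransferases CHAC1 and CHAC2 cleave reduced glutathione inside the cell. CHAC1 is known as a target of the transcription factor ATF4 in the integrated stress response, and GCLC, GCLM and GSR as targets of NRF2 in the oxidative stress response. In transsulfuration, cystathionine beta-synthase (CBS) condenses homocysteine with serine, and cystathionine gamma-lyase (CTH) splits the product to cysteine. In macrophages glutathione buffers the oxidants that these cells make.

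Promoter windows of 3 members are shown because CHAC1 and CTH had the largest differences from control of the 8 and GCLM is the synthesis member whose window held a match. Each window is from RefSeq (build GRCh38.p14), runs from 250 bases before to 50 bases after the annotated start, and is written 5′ to 3′ on the strand of the gene. Capitals mark matches, on either strand, to the C/EBP-ATF response element TGATGNAA or to the antioxidant response element TGACNNNGC.
CHAC1, chr15:40953221-40953520, plus strand: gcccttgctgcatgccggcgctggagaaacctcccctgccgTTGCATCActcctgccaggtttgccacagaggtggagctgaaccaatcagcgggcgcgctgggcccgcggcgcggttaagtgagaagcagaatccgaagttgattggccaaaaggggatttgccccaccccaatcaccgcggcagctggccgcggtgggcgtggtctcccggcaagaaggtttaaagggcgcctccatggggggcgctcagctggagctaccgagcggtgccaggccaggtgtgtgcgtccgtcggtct
CTH, chr1:70411018-70411317, plus strand: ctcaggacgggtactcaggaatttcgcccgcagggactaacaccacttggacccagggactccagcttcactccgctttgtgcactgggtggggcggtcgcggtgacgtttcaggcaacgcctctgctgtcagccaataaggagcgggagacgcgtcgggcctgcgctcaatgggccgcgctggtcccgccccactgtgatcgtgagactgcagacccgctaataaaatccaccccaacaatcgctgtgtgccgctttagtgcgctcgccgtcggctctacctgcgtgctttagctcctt
GCLM, chr1:93909381-93909680, minus strand: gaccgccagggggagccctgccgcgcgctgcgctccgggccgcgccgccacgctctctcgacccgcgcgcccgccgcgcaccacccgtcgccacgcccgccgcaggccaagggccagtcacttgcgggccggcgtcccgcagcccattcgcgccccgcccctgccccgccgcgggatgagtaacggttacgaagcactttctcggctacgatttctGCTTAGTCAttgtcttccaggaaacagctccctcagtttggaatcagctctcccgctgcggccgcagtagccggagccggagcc
The CHAC1 window held 1 match to the C/EBP-ATF element, starting at base 42 of the window. The GCLM window held 1 match to the antioxidant element, starting at base 217, and no window shown held both motifs. The CTH window held neither set of letters, nor did the windows of GCLC and CHAC2. Windows were found for 6 of the 8 members, 9 windows in all, and 1 of the 3 windows of CBS held an antioxidant element. Of 35116 promoter windows in the table, 3.62% held the C/EBP-ATF letters and 13.3% the antioxidant letters. A match describes the letters and is not evidence of binding.

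Total counts were 38506162 to 38893597 with LPS_ABS, 39168526 to 41679412 with LPS and 39791729 to 41608801 in controls. Counts followed the GC content of transcripts differently in the LPS_ABS libraries. Centred on each gene's mean, the log2 level changed per 10 GC points by 0.22 to 0.37 with LPS_ABS, -0.31 to -0.02 with LPS and -0.17 to -0.14 in controls. The 8 transcripts span 36.7% GC (CHAC2) to 62.6% GC (CHAC1), so the members' fold changes with LPS_ABS are given with and without a correction for GC content. The 12 monocyte and macrophage markers, CD14 and SPI1 among them, were all detected and summed to 2897 to 3101 CPM with LPS_ABS, 2453 to 2527 CPM with LPS and 2237 to 2302 CPM in controls. CPM is the count scaled to library size with TMM factors. T cell markers summed to at most 0.0266 CPM with LPS_ABS, 0.167 CPM with LPS and 0 CPM in controls, over the 2 of 6 that had a row. Endothelial markers summed to 237 to 325 CPM with LPS_ABS, 329 to 359 CPM with LPS and 247 to 271 CPM in controls, of which PECAM1 alone exceeded 1 CPM, a gene that macrophages also express. Fibroblast and chondrocyte markers summed to 1.02 to 1.83, 0.837 to 1.15 and 0.96 to 2.07 CPM in the same order of groups, and epithelial markers to 3.10 to 3.62, 2.71 to 4.01 and 1.27 to 2.98 CPM. The part of these differences in the results below was not tested.

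CHAC1 (gene ID 79094), which degrades glutathione to 5-oxoproline and cysteinylglycine, had the largest difference of the 8 between LPS and control. Its level was 105, 135 and 166 CPM in the LPS libraries, against 14.4, 9.48 and 7.23 CPM in the control libraries. The 2 groups were far apart, and the lowest LPS library was above every control. This is a 13.0-fold difference (log2 fold change 3.70 ± 0.31 SE), given as a description because the value was in view when the genes were chosen. With LPS_ABS the level was 256, 198 and 123 CPM. Library 3 of that group lay inside the LPS range, while libraries 1 and 2 lay above it. Between LPS_ABS and LPS the log2 fold change was 0.51 ± 0.28 SE (edgeR adjusted p = 0.165). Without LPS_ABS library 3 it was 0.75 (adjusted p = 0.0441), and with the GC correction it was 0.04 (adjusted p = 0.936). The run without library 3 was the only 1 called of 18 alternative runs. Against control, CHAC1 rose 18.5-fold with LPS_ABS (4.21 ± 0.32 SE, adjusted p = 3.9e-05), or 13.5-fold with the correction (adjusted p = 2.7e-05). This comparison reuses the control libraries that were in view when the genes were chosen. Its p-values, for CHAC1 and for the members and ratios below, are therefore descriptions too.

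CHAC2 (gene ID 494143) catalyses the same cleavage, with lower activity, and did not follow CHAC1. It was the least abundant member per length with LPS_ABS and with LPS, and had 119 to 325 counts per library. It stood at 3.54, 3.53 and 3.16 CPM with LPS_ABS, 5.91, 3.51 and 3.78 CPM with LPS and 5.44, 7.48 and 5.78 CPM in controls. The LPS_ABS libraries were all below the controls, whereas LPS library 1 lay among the controls and LPS libraries 2 and 3 lay below them. Between LPS and control the log2 fold change was -0.50 ± 0.23 SE. Against control CHAC2 fell by 0.87 on the log2 scale with LPS_ABS (SE 0.24, edgeR adjusted p = 0.0156). The call was lost after correcting for GC content (-0.19, adjusted p = 0.608). It was also lost without control library 2 (-0.72, adjusted p = 0.075). Between LPS_ABS and LPS it was not called, at -0.37 before the correction and 0.37 after it (adjusted p = 0.24 and 0.3).

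**Figure D1:**
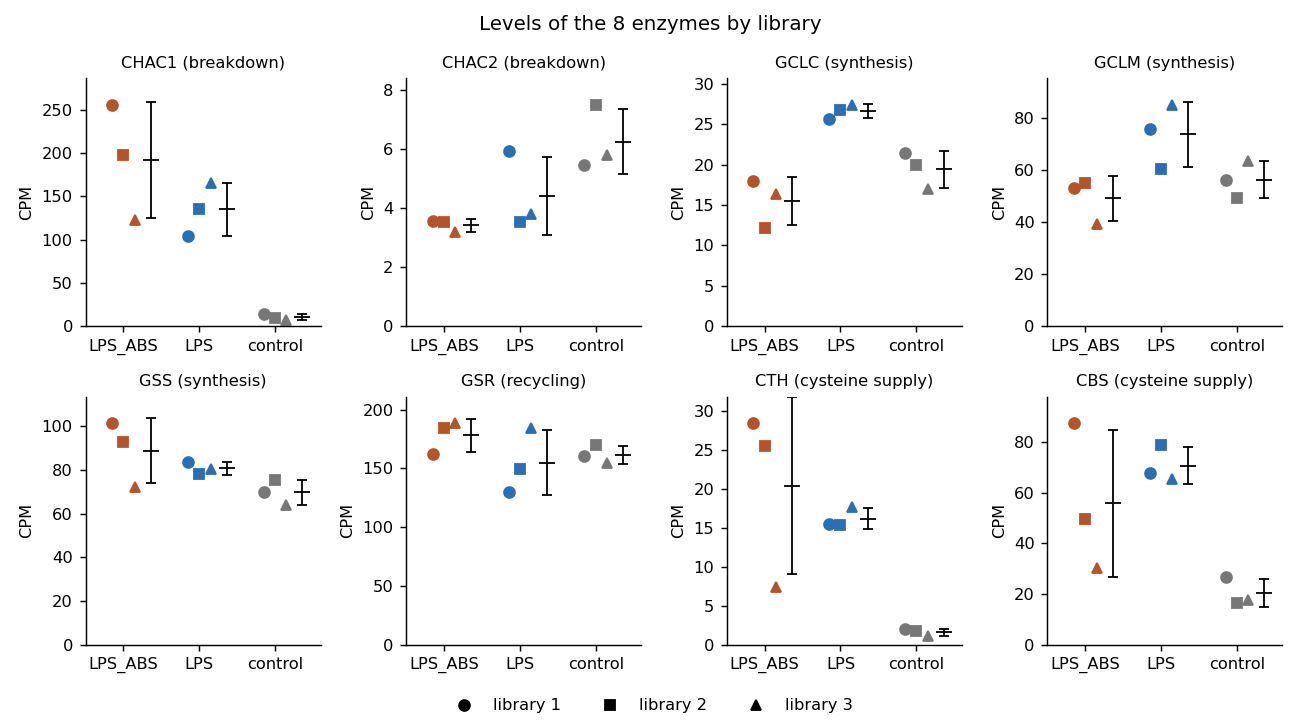
CPM of each member (vertical axes, starting at 0) in the LPS_ABS, LPS and control libraries. Symbols are libraries 1 to 3, and bars are the mean ± SD of 3 libraries. CHAC1, CTH and CBS lie at 7.23 to 14.4, 1.11 to 1.94 and 16.6 to 26.6 CPM in controls, below every other library. LPS_ABS library 3 is the lowest of its group for all of them, and also for CHAC2, GCLM and GSS.

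CTH (gene ID 1491), the enzyme that releases cysteine, had its lowest levels in controls, with 45 to 81 counts there. The LPS libraries held 15.5, 15.4 and 17.7 CPM, against 1.94, 1.68 and 1.11 CPM in the control libraries. The LPS libraries were tight and lay well above the controls, a 10.2-fold difference (log2 3.36 ± 0.42 SE). With LPS_ABS it stood at 28.4, 25.5 and 7.39 CPM. Libraries 1 and 2 were above all LPS libraries and library 3 was below all of them. Between LPS_ABS and LPS the log2 fold change was 0.34 ± 0.37 SE (edgeR adjusted p = 0.494), 0.67 with the GC correction (adjusted p = 0.255), 0.74 without LPS_ABS library 3 (adjusted p = 0.0191) and 1.08 with the correction and without that library (adjusted p = 0.0103). The last run was chosen after seeing the data. Of 18 alternative runs only these 2 without library 3 were called, and the values ran from 0.02 to 1.08. With a replicate block the value was 0.15 (adjusted p = 0.734), and with limma-voom 0.11 (adjusted p = 0.838). Against control CTH rose 12.9-fold with LPS_ABS (3.69 ± 0.42 SE, adjusted p = 2.9e-04), and 16.5-fold with the correction (adjusted p = 1.8e-04). As for CHAC1, these p-values reuse the controls in view at the choice and are descriptions.

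CBS (gene ID 875), the first enzyme of transsulfuration, stood higher with LPS as well, by a smaller factor. Its level was 67.7, 79.0 and 65.4 CPM with LPS, against 26.6, 16.6 and 17.6 CPM in controls, with no overlap, a 3.49-fold difference (log2 1.80 ± 0.31 SE). With LPS_ABS it ranged widely, at 87.4, 49.6 and 30.4 CPM. All LPS_ABS libraries were above the controls, and libraries 2 and 3 lay below the LPS range. Against control the rise with LPS_ABS was 2.76-fold (1.46 ± 0.31 SE, edgeR adjusted p = 0.00462) and 2.03-fold with the GC correction (adjusted p = 0.0396), both p-values again descriptions. Between LPS_ABS and LPS it was not called, at -0.34 ± 0.30 SE before the correction and -0.79 ± 0.29 SE after it (adjusted p = 0.392 and 0.107). Without LPS_ABS library 1 it was called lower (-0.82, adjusted p = 0.0185), and 3 of 18 alternative runs called it.

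The counts of CBS are uncertain because of CBSL (gene ID 102724560), a near-identical copy. Of the 100-base windows of the longest protein-coding CBSL transcript in GENCODE 29, 95.9% occur letter for letter in a CBS transcript. CBSL had 126, 48 and 459 counts with LPS_ABS, 49, 597 and 1189 counts with LPS and 12, 135 and 22 counts in controls. In each group the CBSL counts differed between libraries by a larger factor than the CBS counts, and how the counting assigned shared reads is not given in the sources used here. The sum of both genes was 91.0, 50.9 and 42.6 CPM with LPS_ABS, 68.8, 93.3 and 96.0 CPM with LPS and 26.8, 19.7 and 18.2 CPM in controls. With the counts summed, a choice made after seeing the data, the LPS libraries were 3.99-fold above control (SE 0.26 on the log2 scale). LPS_ABS was 2.85-fold above control (edgeR adjusted p = 0.0019), or 2.11-fold with the GC correction (adjusted p = 0.0129). Between LPS_ABS and LPS the summed gene was not called (-0.48 ± 0.25 SE, adjusted p = 0.152), but with the GC correction it was called lower (-0.92 ± 0.24 SE, adjusted p = 0.0369).

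**Figure D2:**
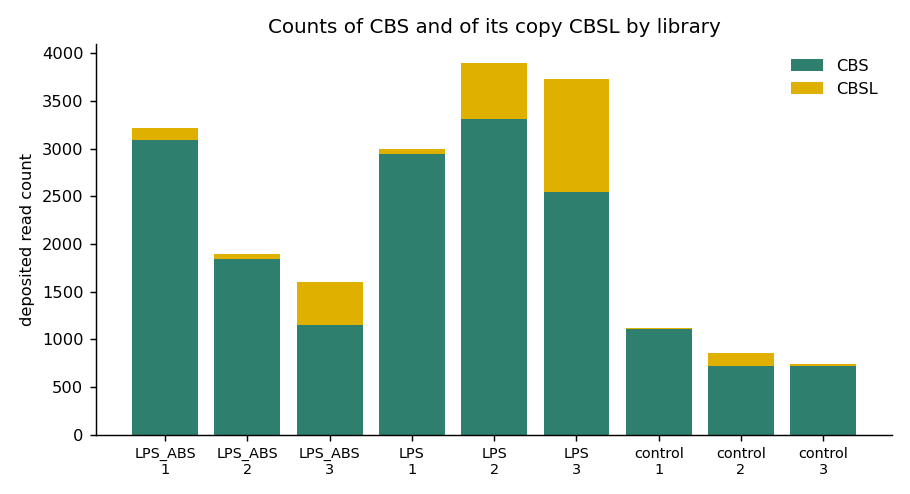
Deposited read counts (vertical axis) of CBS and, stacked on it, of its copy CBSL in the LPS_ABS, LPS and control libraries. The CBSL part runs between 12 and 1189 counts and differs between libraries of 1 group, and the stacked total of every control is below that of every LPS_ABS and LPS library.

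GCLC (gene ID 2729), the catalytic subunit of the rate-limiting ligase, was lowest on average with LPS_ABS and highest with LPS. It stood at 18.0, 12.2 and 16.3 CPM with LPS_ABS, 25.7, 26.8 and 27.4 CPM with LPS and 21.4, 20.0 and 17.0 CPM in controls. The LPS libraries lay above all the others. Between LPS_ABS and LPS GCLC fell to 0.582 times the LPS level (log2 -0.78 ± 0.16 SE, edgeR adjusted p = 0.00678), and with the GC correction the value was -0.54 ± 0.16 SE and was no longer called (adjusted p = 0.06). Between LPS_ABS and control the log2 fold change was -0.33 ± 0.16 SE (adjusted p = 0.137), and -0.07 after the correction (adjusted p = 0.807). Between LPS and control it was 0.45 ± 0.16 SE.

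GCLM (gene ID 2730), which raises the affinity of the ligase for glutamate, stood at 53.3, 55.2 and 39.2 CPM with LPS_ABS, 75.9, 60.4 and 85.2 CPM with LPS and 56.2, 49.3 and 63.5 CPM in controls. The LPS_ABS libraries were all below the LPS libraries and overlapped with the controls. GCLM fell between LPS_ABS and LPS by 0.59 on the log2 scale (SE 0.17, edgeR adjusted p = 0.0219). With the GC correction the sign turned to 0.09 ± 0.15 SE (adjusted p = 0.721), its transcript being 37.3% GC. The call was also lost without LPS_ABS library 3 (-0.45, adjusted p = 0.0576), without LPS library 1 (-0.57, adjusted p = 0.064) or without LPS library 3 (-0.47, adjusted p = 0.089). Against control GCLM was -0.19 ± 0.17 SE with LPS_ABS and 0.46 ± 0.15 SE after the correction (adjusted p = 0.391 and 0.0657), and LPS against control was 0.39 ± 0.17 SE.

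GSS (gene ID 2937), which completes the tripeptide, stood at 101, 92.9 and 72.3 CPM with LPS_ABS, 83.7, 78.1 and 80.3 CPM with LPS and 69.9, 75.3 and 64.0 CPM in controls. The LPS libraries lay narrowly above the controls, and the LPS_ABS libraries overlapped with both groups. Its log2 fold changes were 0.14 ± 0.14 SE for LPS_ABS against LPS, 0.35 ± 0.14 SE for LPS_ABS against control (edgeR adjusted p = 0.457 and 0.0685) and 0.21 ± 0.14 SE for LPS against control. Without LPS_ABS library 3, the lowest of its group, the rise against control was called (0.48, adjusted p = 0.00968), and with the GC correction it was 0.02 (adjusted p = 0.953). The run without library 3 was the only 1 of 18 alternative runs that called it. Against LPS the corrected value was -0.17 (adjusted p = 0.476).

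GSR (gene ID 2936), the recycling enzyme, was the most abundant member per length in each group and overlapped between all groups. It stood at 162, 185 and 188 CPM with LPS_ABS, 129.9, 149.9 and 185 CPM with LPS and 161, 169.7 and 154 CPM in controls. The log2 fold changes were 0.20 ± 0.14 SE for LPS_ABS against LPS (edgeR adjusted p = 0.261), 0.14 ± 0.14 SE for LPS_ABS against control (adjusted p = 0.434) and -0.06 ± 0.14 SE for LPS against control. The GC correction left them at 0.16, 0.11 and -0.05. GSR was not called under any alternative run.

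**Figure D3:**
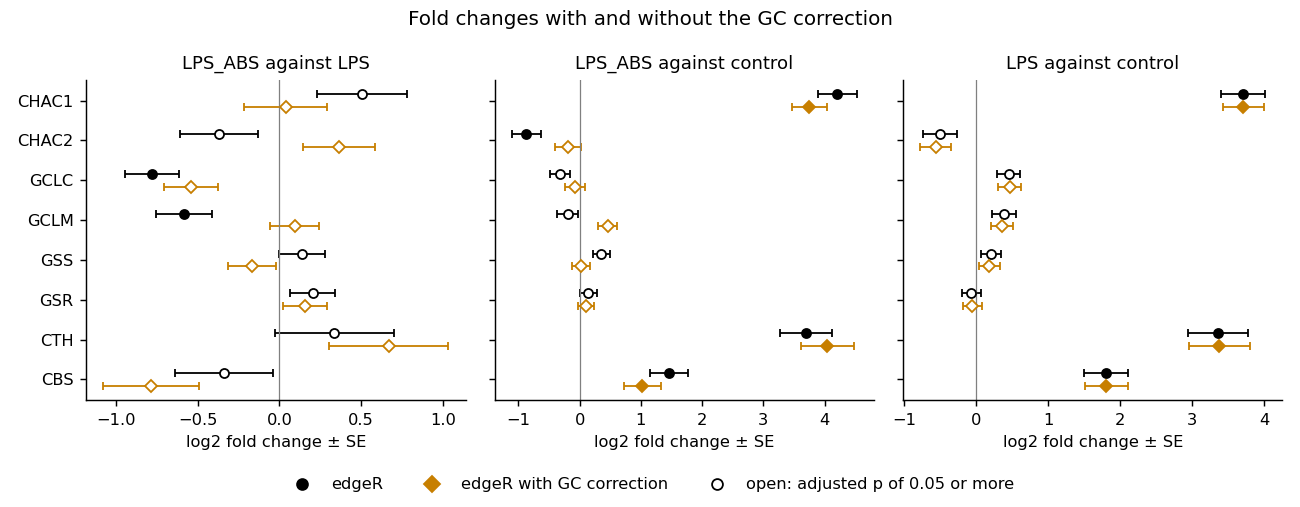
Log2 fold change ± SE (horizontal axes, each with its own scale) of the 8 members in 3 comparisons, from edgeR without the GC correction (circles) and with it (diamonds). Open symbols were not called. CHAC1, CTH and CBS are filled in each comparison with control, at 1.02 to 4.21, and the 2 filled circles of LPS_ABS against LPS, GCLC and GCLM, are open diamonds.

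Across the 8 members, a gene was called at an edgeR adjusted p under 0.05 over all 12970 genes tested. For LPS against control 3 of 8 were called higher and 0 lower, where 7.71% of all genes were called higher and 7.19% lower. This contrast was in view when the members were chosen, so the count is a description. The median log2 fold change was 0.42 over the members and -0.03 over all genes tested. For LPS_ABS against control 3 were higher and 1 lower (14.8% and 19.0% of all genes), and 3 and 0 with the GC correction (5.91% and 6.40%). For LPS_ABS against LPS 0 were higher and 2 lower (16.8% and 18.8% of all genes), and 0 and 0 with the correction (3.65% and 3.75%). At an unadjusted p under 0.05, 0 were higher and 2 lower in that comparison before the correction (GCLC and GCLM), and 0 and 2 after it (GCLC and CBS). DESeq2 and limma-voom each called 0 higher and 2 lower without it. When libraries were scaled by their totals alone, 32.6% of all calls for LPS_ABS against LPS were higher, beside 47.2% with TMM, and 26.7% for LPS_ABS against control, beside 43.8%. The 3 comparisons share libraries in pairs, either the control, the LPS or the LPS_ABS ones. The counts for LPS_ABS against control thus reuse the controls in view when the members were chosen, and are descriptions too. Groups did not overlap for 5 members higher and 0 lower in LPS against control (19.9% and 22.7% of all genes), for 0 and 2 in LPS_ABS against LPS (21.9% and 24.3%), and for 3 and 1 in LPS_ABS against control (24.9% and 25.1%).

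Levels per length, in the deposited FPKM, set the arms side by side. In controls the order was GSR at 55.2 ± 3.22 FPKM, GSS at 24.2 ± 2.24, GCLM at 9.14 ± 1.05, CBS at 6.07 ± 1.68, GCLC at 5.87 ± 0.753, CHAC2 at 4.86 ± 0.881, CHAC1 at 2.89 ± 1.05 and CTH at 0.683 ± 0.191 (mean ± SD, n = 3). CBS and GCLC differed by less than their SDs. With LPS, CHAC1 ranked 2 of 8 at 36.8 ± 7.40 FPKM and CBS 4 of 8 at 20.8 ± 2.25, and CTH had 6.87 ± 0.424. With LPS_ABS, CHAC1 at 48.7 ± 15.7 FPKM overlapped with GSR at 55.9 ± 6.07. Summed over each arm, the breakdown enzymes stood at 51.1 ± 15.8 FPKM with LPS_ABS, 40.2 ± 6.51 with LPS and 7.75 ± 1.16 in controls. The synthesis enzymes stood at 39.7 ± 5.07, 47.1 ± 2.77 and 39.2 ± 1.86 FPKM in the same order of groups, and cysteine supply at 23.2 ± 11.3, 27.7 ± 1.86 and 6.75 ± 1.82. The summed FPKM of breakdown was below that of synthesis in every LPS and every control library, and above it in every LPS_ABS library. The 2 sums were close in LPS library 3 (46.9 against 47.8 FPKM) and LPS_ABS library 3 (34.2 against 34.0 FPKM). FPKM carry no correction for the GC trend of the LPS_ABS libraries, so the order of breakdown and synthesis is that of uncorrected levels only. For LPS_ABS against LPS the GC-corrected log2 fold changes were 0.04 for CHAC1 and 0.37 for CHAC2. They were -0.54 for GCLC, 0.09 for GCLM and -0.17 for GSS. These are RNA levels, and enzyme activity was not measured.

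**Figure D4:**
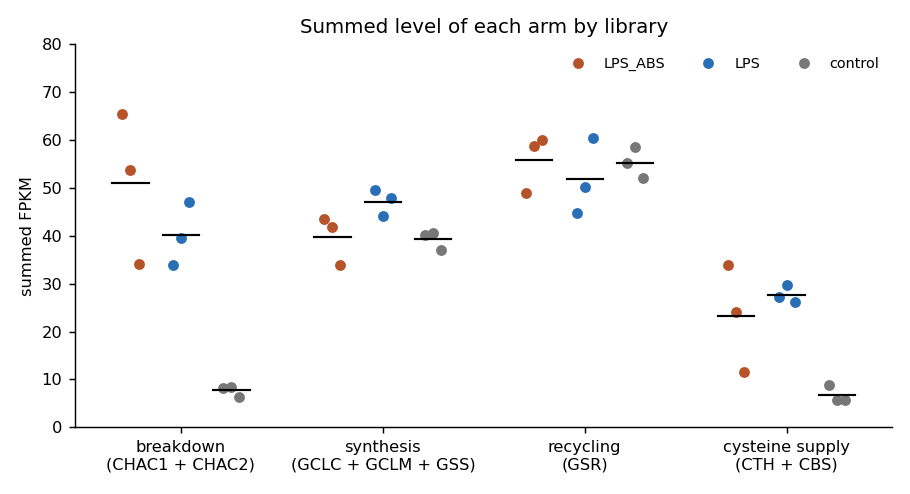
Summed FPKM (vertical axis, starting at 0) of the members of each arm, with 1 point per library and a line at the mean of 3 libraries for LPS_ABS, LPS and control. Breakdown and cysteine supply lie at 7.75 and 6.75 FPKM in controls, on average, below every LPS_ABS and LPS library, while synthesis and recycling overlap between LPS_ABS and control.

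Ratios of 2 members within a library depend on the scaling between libraries only through the 0.5 CPM added to each level. They do move with the GC trend where the members differ in GC content. For CTH, at 1.11 to 1.94 CPM in controls, the added 0.5 CPM makes the differences of CTH over CBS from control smaller. The log2 ratio of CHAC1 over CHAC2 was 5.99, 5.62 and 5.07 with LPS_ABS, 4.04, 5.08 and 5.28 with LPS and 1.33, 0.32 and 0.30 in controls. LPS and LPS_ABS libraries were thus all far above the controls. The difference was 4.15 for LPS against control and 4.91 for LPS_ABS against control (for the second, exact two-sided permutation p = 0.1, the smallest that 3 against 3 allows, and 0.225 adjusted over 9 ratio comparisons). With the GC correction the differences were 4.19 and 3.85. The log2 ratio of CTH over CBS was -2.09 ± 0.23 with LPS and -3.31 ± 0.30 in controls (SD, n = 3 each; difference 1.22), with no overlap. With LPS_ABS it was -1.51 ± 0.52, above the controls by 1.80 (exact permutation p = 0.1, adjusted 0.225) and overlapping with LPS, and with the GC correction it was above the controls by 2.54. Against the sum of CBS and CBSL the difference between LPS and control was 1.05. The ratio of the 2 ligase subunits, GCLM over GCLC, was 1.64 ± 0.46 with LPS_ABS, 1.44 ± 0.25 with LPS and 1.51 ± 0.32 in controls. These 3 groups overlapped, and the differences were 0.20 for LPS_ABS against LPS and 0.13 for LPS_ABS against control (exact permutation p = 0.6 and 0.7). With the correction they were 0.64 and 0.54.

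The genes whose profiles lay nearest to 3 members were found among 9748 genes with a mean of at least 5 CPM. The measure was the root mean square difference of log2 CPM over the 9 libraries, each gene centred on its own mean, without the GC correction. It includes the difference between LPS and control, which was in view when the members were chosen. Nearest to CHAC1 were NLRP12 (0.29), INHBE (0.29), ADM2 (0.37) and SLC6A9, a glycine transporter (0.42), and CTH was the fifth (0.51). Nearest to CTH were STC2 (0.16), AJUBA (0.21), TRIB3 (0.23) and DDIT4 (0.25). Nearest to CBS were SPNS3 (0.25), MTHFD2 (0.27), IRF7 (0.28) and SHMT2 (0.28). MTHFD2 and SHMT2 are mitochondrial enzymes of folate metabolism. INHBE, a secreted factor of the TGF-beta family, stood at 68.5 CPM on average with LPS_ABS, 72.8 CPM with LPS and 4.92 CPM in controls.

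Genes around the route were read from lists of function chosen with earlier results known. Their counts and adjusted p for LPS against control, here and below, are therefore descriptions. For LPS against control 7.71% of all genes tested were called higher and 7.19% lower. Of 8 transporters for cystine, cysteine, glutamate and related amino acids 6 rose with LPS and 0 fell (5 to 6 without any single library). SLC7A11, the cystine importer, averaged 126.7 ± 16.9 CPM in LPS libraries, against 39.1 ± 1.91 CPM in control libraries (SD, n = 3 each) (log2 1.70, edgeR adjusted p = 0.0127), and its partner chain SLC3A2 rose by 1.81 (adjusted p = 0.000645). Of 13 genes of the ATF4 branch of the stress response 12 rose with LPS (11 to 12 without any single library). ATF4 stood at 1637, 1540 and 1639 CPM with LPS and 493, 483 and 487 CPM in controls (log2 1.72, adjusted p = 7.2e-05), and DDIT3 rose by 2.69 (adjusted p = 0.000155). Of 16 NRF2 regulators and targets 3 rose with LPS and 0 fell (1 to 4 rose without any single library). Those were ME1, which makes NADPH (1.09, adjusted p = 0.000671), SLC7A11 and the haem oxygenase HMOX1 (0.85, adjusted p = 0.0225). NQO1 (0.41, adjusted p = 0.0864), TXNRD1 (-0.15, adjusted p = 0.523) and NFE2L2, the gene of NRF2 itself (0.19, adjusted p = 0.518), were not called. The median log2 fold change was 1.33, 2.65 and 0.21 over the transporters, the ATF4 branch and the NRF2 list, beside -0.03 over all genes tested.

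Of 21 glutathione peroxidases, transferases and glutaredoxins tested 2 rose with LPS and 0 fell, beside 7.71% and 7.19% of all genes. Those were the thiol reductase GLRX (0.87, edgeR adjusted p = 0.00324) and the peroxidase GPX8 (1.68, adjusted p = 0.0045). GPX4, which uses glutathione to reduce lipid peroxides, was not called (0.36, adjusted p = 0.0921). Of 11 genes of NADPH supply, which GSR depends on, 5 rose with LPS and 0 fell, with PGD (0.44, adjusted p = 0.0204) and TKT (0.45, adjusted p = 0.0375) of the pentose phosphate pathway, but 1 to 3 rose without any single library. Of 8 genes of the gamma-glutamyl cycle 3 rose and 0 fell (1 to 4 rose without any single library). OPLAH, which opens the 5-oxoproline released by CHAC1 to glutamate, rose by 1.39 (adjusted p = 0.00103), while GGT1, the cell-surface transpeptidase with near-identical copies in the genome, was not called (0.06, adjusted p = 0.861).

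The remaining lists held between 1 and 3 called genes each for LPS against control, where 7.71% of all genes were called higher and 7.19% lower. Of 12 genes of the thioredoxin and peroxiredoxin system 2 rose, TXNIP, which inhibits thioredoxin (1.92, edgeR adjusted p = 0.000178), and PRDX5 (0.71, adjusted p = 0.015), and 1 fell, PRDX4 (-0.83, adjusted p = 0.00134), while 1 to 3 rose without any single library. Of 9 genes of the methionine cycle, which supplies homocysteine to CBS, 1 rose (AHCYL1, 0.89, adjusted p = 0.000757) and 0 fell. Of 10 genes of cysteine breakdown and sulfide oxidation 1 rose (GOT1, 1.45, adjusted p = 0.00405) and 0 fell. Of 5 genes of glutathione transport 0 rose and 1 fell, the mitochondrial importer SLC25A39 (-0.40, adjusted p = 0.0382). It was not called with the GC correction (-0.37, adjusted p = 0.0531), and 0 to 1 of the list fell without any single library. For LPS_ABS against LPS the uptake list held 0 higher and 2 lower, SLC38A1 (-0.89, adjusted p = 0.0209) and SLC38A2 (-0.77, adjusted p = 0.0187), and 0 and 0 with the GC correction, beside 16.8% and 18.8% of all genes before the correction. Without any single library 0 to 3 were higher and 0 to 3 lower. The NRF2 list held 1 higher and 5 lower in that comparison, and 0 and 0 with the correction. Without any single library 0 to 2 were higher and 1 to 6 lower.

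**Figure D5:**
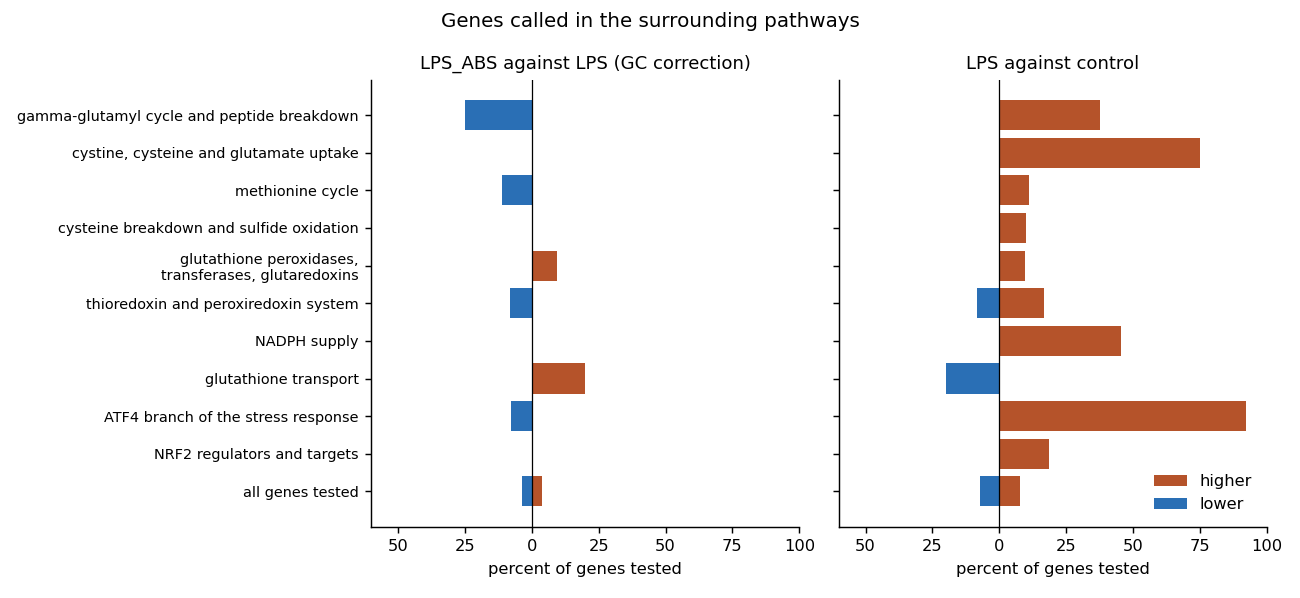
Percent of the tested genes of each list that were called higher (to the right of 0) or lower (to the left), for LPS_ABS against LPS with the GC correction and for LPS against control. The bottom bar is all genes tested (3.65% higher and 3.75% lower on the left, 7.71% and 7.19% on the right). The longest bars are the 12 of 13 ATF4 branch genes and the 6 of 8 transporters called higher with LPS.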

How the data were processed

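Counts per gene, as whole numbers, and FPKM values were deposited by the authors for 9 libraries and 16222 genes. The submitters' processing notes name DESeq2, fastp, HTSeq, HISAT2 and R 3.2.0 without their order. Genome build, annotation and strand setting are not given in the sources used here. The deposited FPKM were tested against the counts and equal them over a fixed gene length and the library total (largest relative deviation 1.5e-13).

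The main test was edgeR 4.0.16 (R 4.3.3) on the counts: filterByExpr (12970 genes, 99.985% of counts), TMM and a quasi-likelihood F test on 3 group means over 9 libraries with 6 residual degrees of freedom. Benjamini-Hochberg adjustment ran over all genes tested, with calls at an adjusted p under 0.05. The common coefficient of variation was 18.4%, and counting error of the members (45 to 9041 counts) adds to it. For the GC correction, the log counts of each library, relative to the mean over libraries, were smoothed against transcript GC content with lowess at a span of 0.3, taking the longest protein-coding GENCODE 29 transcript per gene (99.06% of genes matched), and the trend entered as an offset. Ratios used log2(CPM + 0.5). The fits were tested on simulated data. limma 3.58.1 and DESeq2 1.42.0 were alternatives.

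Members and gene lists were chosen with earlier results of these data known. Named were the members, up to 4 genes per list with the smallest adjusted p in LPS against control and in LPS_ABS against LPS, 8 set genes, and the 4 nearest profiles of each called member with an absolute log2 fold change of at least 1. Of the named genes those with values bearing on the route are printed. The result of 1 marker list is not reported here.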

Additional observations from a re-analysis of the deposited data

How the results depend on the processing

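In both comparisons with control the direction and call of CHAC1, CTH and CBS held under every alternative run. With the GC correction 959 genes were called for LPS_ABS against LPS and 1597 for LPS_ABS against control, in place of 4621 and 4388, and 0 members were lower in each. CHAC2 (0.37), GCLM (0.094) and GSS (-0.17) for LPS_ABS against LPS and GCLM for LPS_ABS against control (0.46) changed sign with it, as did the CHAC1 over CHAC2 ratio for LPS_ABS against LPS (-0.35). Correlations were -0.06 to 0.31 for same-numbered libraries and -0.32 to 0.26 for others, and the best match had the same number in 8 of 18 cases. These ranges overlap, so whether the replicate numbers pair the libraries is undecided. A replicate block gave 1960, 4838 and 4573 genes for LPS against control, LPS_ABS against LPS and LPS_ABS against control and changed no call of a member. The block with the GC correction gave 1083 and 1600 genes in the LPS_ABS comparisons and 1 (CBS) and 0 members lower, with CHAC1 at -0.040, CHAC2 at 0.35, GCLM at 0.11 and GSS at -0.18 against LPS and GCLM at 0.46 against control, where it was called higher (adjusted p = 0.0476). With the GC correction and without LPS_ABS library 3, chosen after seeing the data, 541 and 2410 genes were called, 1 member (CTH) was higher against LPS and 0 were lower in either comparison, and CHAC2 (0.26), GCLM (0.11) and GSS (-0.025) against LPS and GCLM against control (0.47) changed sign. With CBS and CBSL summed and the GC correction 1 member (CBS) was lower against LPS and 0 against control. Fits of only the 2 groups compared called 3245 genes for LPS against control and 3042 for LPS_ABS against LPS. With total counts in place of TMM 2 members were lower for LPS_ABS against control. The median log2 fold change of all genes was then -0.08 there and -0.09 for LPS_ABS against LPS, beside 0.05 and 0.02 with TMM. Leaving out 1 library gave 873 to 1698 genes for LPS against control, 2360 to 4918 for LPS_ABS against LPS and 2351 to 4679 for LPS_ABS against control. Members called lower were then 0 to 1, 1 to 3 and 0 to 1, and members called higher 3 to 3, 0 to 2 and 3 to 4. GSR ran from -0.21 to 0.050 for LPS against control, and the GCLM over GCLC difference from -0.18 to 0.11, -0.051 to 0.40 and -0.12 to 0.33. The cause of these changes was not tested.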

Other observations

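Of the 8 genes of the gamma-glutamyl cycle and peptide breakdown 2 were lower and 0 higher for LPS_ABS against LPS after the GC correction, beside 3.75% and 3.65% of all genes, and 3 were lower when LPS_ABS library 3 was also left out. OPLAH fell by 0.79 (edgeR adjusted p = 0.0135) and was not called before the correction (-0.32, adjusted p = 0.222), with overlapping levels of 35.4, 34.9 and 28.95 CPM with LPS_ABS, against 28.2, 51.0 and 44.9 CPM with LPS. LAP3, an aminopeptidase that cleaves cysteinylglycine, fell by 0.56 (adjusted p = 0.0226), and by 0.47 before the correction (adjusted p = 0.0165). CNDP2, which also cleaves cysteinylglycine, and ANPEP were not called after the correction (-0.24 and -0.06, adjusted p = 0.38 and 0.825).

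ATF4 fell by 0.63 (edgeR adjusted p = 0.0312) after the correction and was not called before it (-0.25, adjusted p = 0.185). Its level was 1549, 1496 and 1003 CPM with LPS_ABS, against 1637, 1540 and 1639 CPM with LPS. The glutaredoxin GLRX5 rose by 0.52 (adjusted p = 0.0148), and by 0.41 before the correction (adjusted p = 0.0152). After the correction 1 of 9 genes of the methionine cycle and 1 of 12 of the thioredoxin list were lower and 1 of 5 of glutathione transport was higher. Of all genes 3.75% were then lower and 3.65% higher. Without LPS_ABS library 3 as well, these counts were 0, 0 and 0, and 1 gene of the thioredoxin list was called higher.

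LPS_ABS library 3 was the lowest of its group for SLC7A11 (151, 65.2 and 32.2 CPM in libraries 1 to 3), SLC3A2 (876, 799 and 397 CPM) and DDIT3 (62.9, 74.8 and 28.1 CPM), as it was for CHAC1, CTH and CBS. It was also the lowest for CHAC2, GCLM and GSS, but not for GCLC and GSR.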
